A study of Vitis vinifera with 24 samples.

Results

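The stilbene synthase cluster of grapevine chromosome 16 was described by its expression in the anthers and calli of 2 Vitis vinifera cultivars. The cluster was taken as all loci whose identifier starts with VIT_16s0100g and whose last digits run from 00750 to 01200, which gave 39 of the 29971 loci in the deposited table. No locus in the table carries a name, so that the cluster encodes stilbene synthases is taken from published locus assignments, since the table itself cannot show it. The chromosome is read from the identifier. Start and end positions, and exon or UTR annotations, are not given here because none of the identifiers matched the reference gene table.

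RNA was measured in 24 libraries, 3 from each of 8 groups, and the labels call the replicates biological. Cabernet Sauvignon (CS) is labelled poorly competent and Sangiovese (SG) highly competent for embryogenesis, in which cultured somatic tissue gives rise to embryos. Each cultivar contributed anthers cut out of immature flowers (A), undifferentiated callus at day 40 of anther culture (40D), and calli sorted by eye under a stereomicroscope after 4 months of culture into non-embryogenic (NEC) and embryogenic (EC). All callus grew in the dark on induction medium with 4.5 µM of the synthetic auxin 2,4-D and 8.9 µM of the cytokinin BAP. NEC and EC had spent 3 months on that medium and then 1 month on proliferation medium with 10 µM of the auxin NOA, 1 µM BAP, 20 µM of the auxin IAA and 2.5% charcoal, so in comparisons with 40D the callus type, the age of the culture and the medium cannot be told apart. The RNA came from about 100 mg of bulk tissue, in which fewer cells of a type and less RNA per cell cannot be told apart. The tissue labels were not checked against marker genes, since the loci carry no names.

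Stilbene synthases are plant enzymes that join a phenylpropanoid starter from the phenylalanine pathway with malonyl units to make resveratrol, a defence compound of grapevine. They use the same substrates as chalcone synthase, the entry enzyme of the flavonoid and anthocyanin pathway, from which they are thought to have evolved. Grapevine is known for an unusually large family of them, most in a tandem array of near-identical copies, and for inducing them on infection, wounding and UV light. Because the copies are alike, reads may be shared between them, and the value of a single copy is less certain than the sum over the cluster. The libraries did not keep strand, so reads from overlapping or antisense transcripts could not be separated.

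Values are FPKM, fragments divided by transcript length and by the mapped fragments of the library. Differences between groups are given as differences of mean log2(FPKM + 1), a scale that compresses the changes of low loci. A locus is called higher or lower where the Benjamini-Hochberg adjusted p of limma over all tested loci was under 0.05. A locus was tested where at least 3 libraries reached 1 FPKM. Of the 39 cluster loci, 30 passed this filter, 3 were listed at 0 in all 24 libraries and the other 6 had low values that reached at most 13.4 FPKM, in the third CS NEC library. Since most loci outside the cluster were called as well, counts of cluster loci called in this fit are set beside the share of all 21568 tested loci called in the same direction. For other fits that share was computed only where it is given. The remaining counts from those fits cannot be judged against all tested loci.

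Several libraries stood apart from their labels' grouping. The third CS NEC library held far more stilbene synthase than the other CS NEC libraries, and values that rest on it are given with and without it. The 40D libraries were very alike, with a coefficient of variation of the summed cluster level of 1.04% in CS and 0.47% in SG. In the anther and EC groups the third library lay between the first and the second at 61.7 to 73.3% of loci with 5 FPKM or more. In the 40D and NEC groups any library lay between the others at 21.7 to 40.0% of such loci. In SG anthers all 25 cluster loci examined were between, at a median of 0.446 of the way from the first library to the second, and in SG EC all 7, at a median of 0.648. Whether these libraries are independent was not tested, so p-values measure only the spread between the deposited libraries. The column sums ran from 729402 to 938765 FPKM. Read numbers are not known. The depth estimated from low values ran from 0.895 to 1.51 times that of the first CS anther library.

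The summed level of the 39 loci was low in anthers, high in 40D and NEC callus and low again in EC in both cultivars. In CS anthers it was 10.9, 4.96 and 7.97 FPKM in replicates 1 to 3. In CS 40D it was 578, 582 and 570.5 FPKM. In CS NEC the replicates had 445, 414 and 2952 FPKM, and in CS EC 66.9, 77.7 and 70.2 FPKM. The 4 CS groups did not overlap apart from NEC and 40D, where 2 NEC libraries lay below every 40D library and 1 lay far above them.

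In SG anthers the summed level was 4.21, 182 and 81.0 FPKM, so the first library was at the level of CS anthers and the second well above it. In SG 40D it was 653, 647 and 651 FPKM. In SG NEC it was 1162, 851 and 1127 FPKM, above every SG 40D library. In SG EC it was 89.4, 3.08 and 32.2 FPKM, a spread from the level of CS EC down to that of CS anthers. SG anthers and SG EC overlapped, and both lay below all SG 40D and NEC libraries.

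As group means, the sum went from 7.95 ± 2.98 FPKM in CS anthers (SD, n = 3) to 577 ± 6.03 in CS 40D. It was 1270.1 ± 1456 FPKM in CS NEC and 71.6 ± 5.55 FPKM in CS EC. The SG anthers averaged 89.1 ± 89.2 FPKM, SG 40D 650.5 ± 3.05, SG NEC 1047 ± 170.4 and SG EC 41.6 ± 43.9 FPKM (SD, n = 3 each). The sum in 40D was 72.6 times that in anthers in CS and 7.30 times in SG. The ratio of the closest libraries of the compared groups was 52.2 in CS and 3.55 in SG. Without the second SG anther library the SG ratio was 15.3. NEC exceeded EC 17.7-fold in CS and 25.2-fold in SG. The SG ratio was 59.3 without the first SG EC library and 17.2 without the second, and it ran from 9.52 for the closest libraries to 378 for the farthest. Without the third CS NEC library the CS ratio was 6.00, and the remaining 2 NEC libraries averaged 0.744 of CS 40D, where with it NEC was 2.20 times 40D. The order of the callus groups within CS thus turned on 1 library, while in SG NEC was 1.61 times 40D with no overlap. Most of that SG rise was at 1 locus, VIT_16s0100g01100, which averaged 184.4 FPKM in 40D and 538.7 FPKM in NEC.

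**Figure D1:**
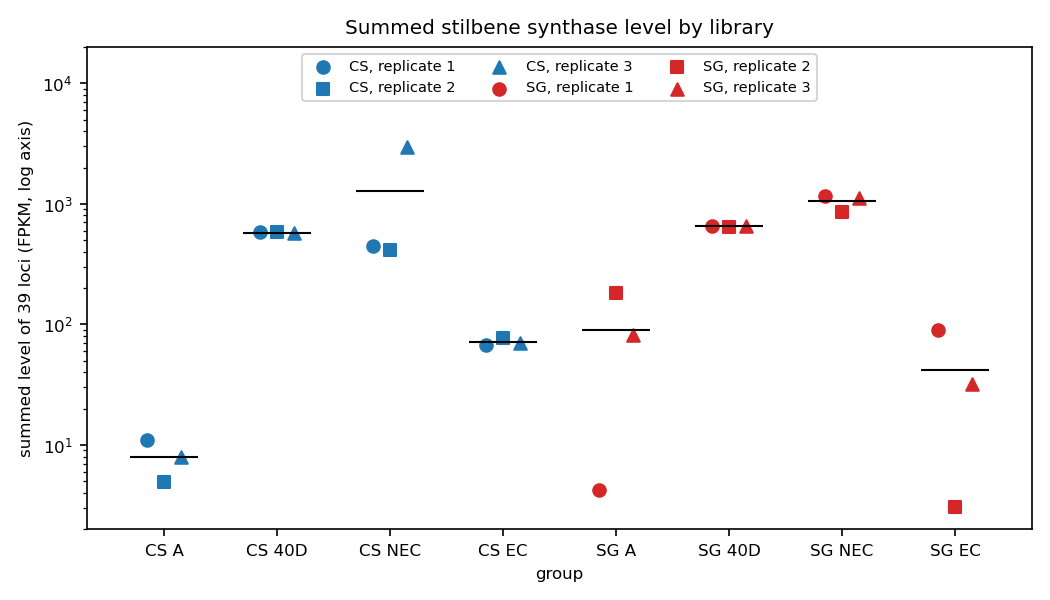
Summed FPKM of the 39 stilbene synthase loci (log axis) in each of the 24 libraries, by group; symbols are replicates and horizontal lines group means. The third CS NEC library stands at 2952 FPKM beside 445 and 414 in its group, and SG anthers and SG EC each spread over more than 10-fold.

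The copies were far from equal in level. Locus VIT_16s0100g01100 had the highest mean over the 24 libraries, 140.3 FPKM, followed by VIT_16s0100g01200 with 67.7, VIT_16s0100g01070 with 51.0 and VIT_16s0100g00780 with 28.2 FPKM. VIT_16s0100g00770, VIT_16s0100g00750, VIT_16s0100g01030 and VIT_16s0100g01190 followed with means between 14.8 and 18.6 FPKM. FPKM is scaled to length, so these levels can be set beside each other as far as reads were divided correctly between copies. In all callus groups VIT_16s0100g01100 and VIT_16s0100g01200 held the 2 largest shares of the sum. VIT_16s0100g01100 held 33.7% of the sum in CS 40D, 17.2% in CS NEC, 28.2% in CS EC, 28.3% in SG 40D, 51.0% in SG NEC and 23.9% in SG EC. The 3 leading loci together held from 46.3% in CS NEC to 79.4% in SG NEC.

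Anthers had another order of copies. By mean share VIT_16s0100g01030 led in anthers of both cultivars. It held 19.2 ± 2.1% of the sum in CS and 10.8 ± 3.2% in SG (SD, n = 3). Its share in the callus groups was 1.55 to 4.21%. VIT_16s0100g01100 held only 1.67% in CS anthers and 3.27% in SG anthers. In SG anthers VIT_16s0100g01000 came next with 10.5 ± 0.36% of the sum, beside 0.112 to 1.51% in callus. Over the 30 tested loci the Spearman correlation of the group means was 0.784 between anthers of CS and SG, 0.077 to 0.515 between anthers and callus groups, and 0.840 to 0.958 between callus groups. These correlations are descriptions over loci that share libraries and possibly reads. In CS anthers the values behind the order were small, with 2, 0 and 2 loci at 1 FPKM or more in the 3 libraries. In SG anthers 0, 28 and 22 loci reached 1 FPKM.

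The number of loci at 1 FPKM or more was 26 in each CS 40D library, 25, 24 and 36 in CS NEC, and 15, 13 and 12 in CS EC. In SG it was 22 in each 40D library, 24 in each NEC library, and 12, 0 and 5 in EC. The sum was also more concentrated in SG 40D and NEC than in the same CS groups. In SG 8 loci made up 90% of it in NEC and 10 in 40D, beside 17 and 15 loci in CS. In EC 12 loci did so in SG and 13 in CS. The CS NEC count includes the third library, where VIT_16s0100g01100 held 11.8% of the sum, beside 20.9 and 18.9% in the first 2.

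**Figure D2:**
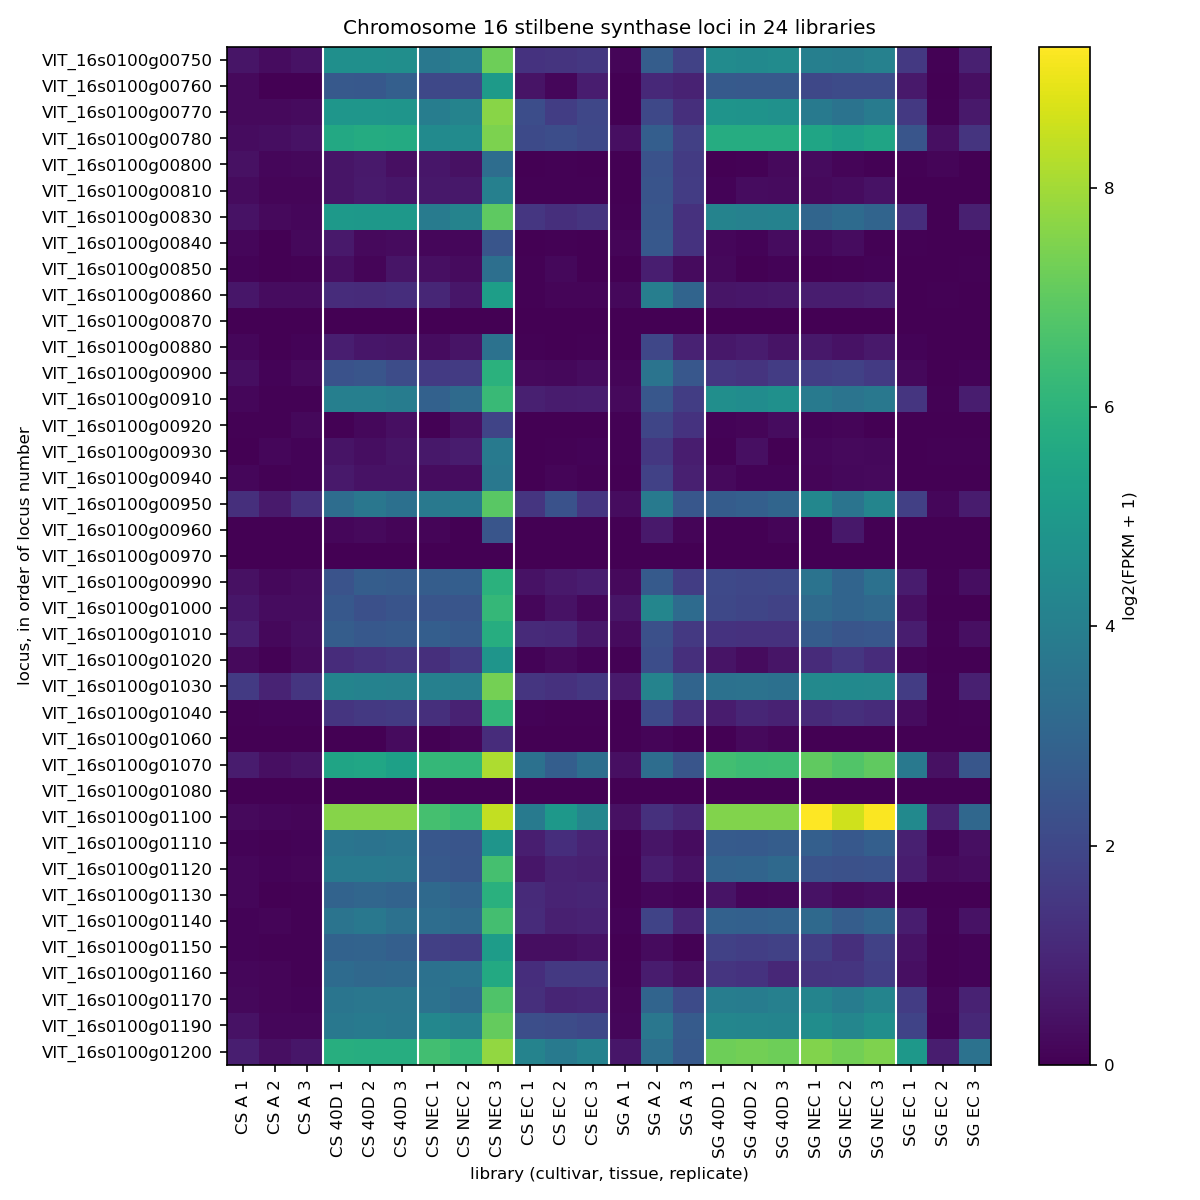
log2(FPKM + 1) of the 39 loci (rows, in order of locus number) in the 24 libraries (columns, by group and replicate). High rows such as VIT_16s0100g01100, VIT_16s0100g01070 and VIT_16s0100g01200 are bright in 40D and NEC, many of the low rows lie between VIT_16s0100g00800 and VIT_16s0100g00960, and the third CS NEC library is bright in nearly all rows.

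The comparison of 40D callus with anthers asks how the cluster changed when anther tissue became callus. In CS 23 of the 30 tested loci rose and none fell, beside 35.6% of all tested loci higher and 43.0% lower. The median difference was 2.88 over the tested cluster loci and -0.08 over all tested loci. VIT_16s0100g01100 had 0.176, 0.111 and 0.0924 FPKM in the CS anther libraries and 195.7, 192.9 and 194.9 FPKM in CS 40D. The groups lay far apart, and the locus rose by 7.44 on the log2 scale (SE 0.62, limma adjusted p = 1.5e-09). VIT_16s0100g00780 rose from 0.289 ± 0.066 to 49.9 ± 1.81 FPKM (SD, n = 3), by 5.31 (SE 0.64, limma adjusted p = 2.73e-07). VIT_16s0100g01200 rose from 0.503 ± 0.22 to 55.0 ± 0.27 FPKM, by 5.23 (SE 0.74, limma adjusted p = 2.45e-06). The 7 loci not called had differences above 0 as well. For the 0 loci called lower, limma also gave 0 at an unadjusted p under 0.05.

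In SG 16 of the 30 tested loci rose from anthers to 40D and 2 fell, beside 36.8% of all tested loci higher and 39.9% lower. The medians were 1.28 over the cluster loci and -0.03 over all tested loci. All 16 had also risen in CS; the cultivars' responses themselves were not tested against each other in this comparison. VIT_16s0100g01100 had 0.331, 1.43 and 0.938 FPKM in SG anthers and 184.2, 182.8 and 186.1 in SG 40D, a rise of 6.65 (SE 0.62, limma adjusted p = 9.26e-09). VIT_16s0100g01200 went from 0.469, 9.55 and 5.04 FPKM to 152, 157 and 149 FPKM, with a rise of 5.08 (SE 0.74, limma adjusted p = 4.02e-06). VIT_16s0100g01070 went from 0.313, 9.05 and 4.50 FPKM to 88.0, 82.2 and 84.0 FPKM, with a rise of 4.36 (SE 0.69, limma adjusted p = 1.16e-05). In each of these the second anther library was the highest and the first the lowest.

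Both loci called lower in SG 40D were minor copies whose groups overlapped. Both passed the filter only through SG anthers and the third CS NEC library, so these calls are not independent of the filter. VIT_16s0100g00840 had 0.103, 4.89 and 1.54 FPKM in SG anthers and 0.108, 0.0605 and 0.251 in SG 40D, a difference of -1.16 (SE 0.49, limma adjusted p = 0.0385). VIT_16s0100g00920 had 0.0335, 2.80 and 1.57 FPKM in SG anthers and 0.0702, 0.0890 and 0.245 in SG 40D, a difference of -0.93 (SE 0.38, limma adjusted p = 0.0331). The first anther library of each lay within or below the 40D libraries, and neither was called when the third libraries of the anther and EC groups were left out. Without the first SG anther library 6 loci were called lower and 13 higher. VIT_16s0100g01030, the leading copy in anthers by mean share, was not called. It had 0.610, 16.8 and 7.04 FPKM in SG anthers and 9.90 to 10.3 FPKM in SG 40D. With each 40D group averaged into 1 sample, 10 SG loci were called higher and none lower.

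Between 40D and NEC few loci were called. In CS 1 of 30 rose and none fell, beside 32.0% of all tested loci higher and 31.2% lower. The median was 0.89 over the cluster loci and 0.01 over all tested loci, and 2 loci were higher and none lower at an unadjusted limma p under 0.05. The locus called was VIT_16s0100g01160, with 8.58, 7.71 and 8.06 FPKM in CS 40D and 10.1, 10.7 and 49.4 FPKM in CS NEC, a difference of 1.04 (SE 0.36, limma adjusted p = 0.0176). The third of these NEC libraries was several times the others. Without that library the locus was not called (difference 0.33, limma adjusted p = 0.101). The median was then -0.23, with none of 30 loci higher and 5 lower. The 30 include 4 loci that passed the filter only with that library. The share of all tested loci called in this fit was not computed, and 5 of 30 is not above the 31.2% lower given for the fit of all libraries. The 5 were VIT_16s0100g00760, VIT_16s0100g00780, VIT_16s0100g01110, VIT_16s0100g01120 and VIT_16s0100g01150, of which the last 3 are named because of these values. Their differences from 40D ran from -1.24 to -0.64 with the 2 remaining NEC libraries.

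In SG none of the 30 loci was called in either direction between NEC and 40D, beside 25.7% of all tested loci higher and 21.8% lower. At an unadjusted limma p under 0.05, 3 loci were higher and none lower. The medians were 0.12 over the cluster loci and 0.03 over all tested loci. VIT_16s0100g01100 had 184.2, 182.8 and 186.1 FPKM in SG 40D and 625.5, 395.4 and 595.2 FPKM in SG NEC. Every NEC library was above every 40D library, and the difference of 1.51 (SE 0.62) had a limma adjusted p of 0.0528. Of the 30 loci, 18 had groups that did not overlap, 11 with NEC higher and 7 with NEC lower, beside 67.0% of all tested loci in either direction. The spread in this fit is shared by all 8 groups, among them the variable anther and EC groups of SG. When the 2 compared groups were fitted alone, 10 loci were called higher and 7 lower, beside 32.4% and 27.1% of all tested loci.

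EC was below 40D in both cultivars. In CS 23 of 30 loci fell and none rose, beside 26.5% of all tested loci lower and 52.0% higher, with medians of -2.11 over the cluster loci and 0.32 over all tested loci. VIT_16s0100g00830 fell from 31.6, 29.9 and 30.1 FPKM in CS 40D to 1.78, 1.37 and 1.65 in CS EC, a difference of -3.60 (SE 0.60, limma adjusted p = 1.75e-05). VIT_16s0100g00780 followed with -3.56 (SE 0.64, limma adjusted p = 4.28e-05) and VIT_16s0100g01100 with -3.26 (SE 0.62, limma adjusted p = 8.94e-05). The same 7 loci as in the comparison of 40D with anthers were not called, all of them at 2.09 FPKM or less in the CS 40D libraries.

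In SG 20 of 30 loci fell from 40D to EC and none rose, beside 29.7% of all tested loci lower and 47.4% higher, with medians of -2.11 and 0.20. All 20 had also fallen in CS. The largest falls were those of VIT_16s0100g01100, from 182.8 to 186.1 FPKM down to 20.4, 0.774 and 7.67 FPKM, a difference of -4.75 (SE 0.62, limma adjusted p = 1e-06), and of VIT_16s0100g00780, -4.35 (SE 0.64, limma adjusted p = 4.07e-06). VIT_16s0100g01070 fell by 4.22 (SE 0.69, limma adjusted p = 1.67e-05). The second SG EC library was the lowest for all 3, at 0.774, 0.291 and 0.321 FPKM. With each 40D group averaged into 1 sample, 14 loci were called lower in CS and 14 in SG.

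The comparison of EC with NEC is between calli of the same age and medium. In CS 28 of 30 loci were lower in EC and none higher, beside 27.9% of all tested loci lower and 51.4% higher. The median was -2.91 over the cluster loci and 0.31 over all tested loci. All 30 loci had every EC library below every NEC library, beside 28.5% of all tested loci. VIT_16s0100g01030 had 15.7, 14.8 and 163 FPKM in CS NEC and 1.70, 1.53 and 1.83 FPKM in CS EC, a difference of -3.71 (SE 0.74, limma adjusted p = 0.000144). VIT_16s0100g01070 had 72.6, 69.8 and 282 FPKM in NEC and 9.91, 5.87 and 9.27 in EC, a difference of -3.63 (SE 0.69, limma adjusted p = 8.44e-05). VIT_16s0100g00830 had 13.6, 16.7 and 125 FPKM in NEC and 1.78, 1.37 and 1.65 in EC, a difference of -3.62 (SE 0.60, limma adjusted p = 1.61e-05). In each the third NEC library was several times the others, and the other NEC libraries were still above every EC library.

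Without the third CS NEC library 25 of 30 loci were lower in CS EC and none higher, with a median of -2.06. The difference was then -2.60 at VIT_16s0100g01030 (SE 0.61, limma adjusted p = 0.000827), -2.98 at VIT_16s0100g01070 (SE 0.71, limma adjusted p = 0.000961) and -2.63 at VIT_16s0100g00830 (SE 0.44, limma adjusted p = 2.32e-05). When the third libraries of the anther and EC groups were left out too and each 40D group was averaged, 17 loci were lower and none higher. The shares of all tested loci called in these fits were not computed.

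In SG 21 of 30 loci were lower in EC than in NEC and none higher, beside 32.2% of all tested loci lower and 46.1% higher, with medians of -2.35 over the cluster loci and 0.15 over all tested loci. All 21 were also lower in CS. VIT_16s0100g01100 had 625.5, 395.4 and 595.2 FPKM in SG NEC and 20.4, 0.774 and 7.67 FPKM in SG EC. Its difference of -6.26 (SE 0.62, limma adjusted p = 1.97e-08) was the largest of the cluster in any comparison of EC with NEC. VIT_16s0100g01070 had 129, 107 and 128 FPKM in NEC and 12.4, 0.321 and 4.56 in EC, a difference of -4.72 (SE 0.69, limma adjusted p = 3.93e-06). VIT_16s0100g01200 had 182, 157 and 180.4 FPKM in NEC and 30.4, 0.684 and 10.3 in EC, a difference of -4.37 (SE 0.74, limma adjusted p = 2.3e-05). Of the 30 loci, 28 had every EC library below every NEC library, beside 34.2% of all tested loci. With the libraries in doubt left out, 23 were lower and none higher, and the share of all tested loci was not computed.

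For the 0 loci called higher in EC, limma also gave 0 at an unadjusted p under 0.05 against NEC and against 40D in both cultivars. The other leading copies moved in the same way. VIT_16s0100g00770 went from 14.4, 16.7 and 200.2 FPKM in the CS NEC libraries to 3.55, 2.21 and 2.97 in CS EC, and from 13.3, 10.7 and 13.4 in SG NEC to 1.89, 0.0381 and 0.571 in SG EC. VIT_16s0100g01190 went from 18.6, 16.1 and 135 FPKM to 3.70, 3.42 and 3.09 in CS, and from 22.6, 18.1 and 23.4 to 2.64, 0.0757 and 1.05 in SG. Both were called lower in EC in both cultivars, and the differences in CS were -3.29 and -3.02.

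The loci at the ends of the range gave the edges of the pattern. VIT_16s0100g00750, the first locus, averaged 23.6 FPKM in 40D, 59.2 FPKM in NEC and 1.68 FPKM in EC of CS. Its means in the same SG groups were 21.1, 15.1 and 0.907 FPKM. The first 2 CS NEC libraries averaged 13.4 FPKM at this locus and the third had 151 FPKM. Without the third library the CS NEC mean lay below those of CS 40D and SG NEC. Neither difference was called then (limma adjusted p = 0.167 and 0.812). The next, VIT_16s0100g00760, averaged 5.30 FPKM in CS 40D and 0.403 FPKM in CS EC. Its CS NEC libraries had 3.03, 3.02 and 32.5 FPKM, a mean of 12.8. Without the third library it was lower in CS NEC than in 40D, by 0.64. In SG 40D, NEC and EC it averaged 5.08, 3.25 and 0.286 FPKM. Just outside, VIT_16s0100g00740 went the other way. It averaged 44.4 FPKM in CS anthers, 6.30 FPKM in 40D, 3.89 FPKM in NEC and 61.9 FPKM in EC, and it was higher in EC than in NEC by 3.84 in CS (limma adjusted p = 1.18e-08) and by 1.54 in SG (limma adjusted p = 0.000871). The last members, VIT_16s0100g01190 and VIT_16s0100g01200, were low in anthers and EC. The locus after them, VIT_16s0100g01210, had 27.3, 22.6 and 25.2 FPKM in CS anthers and a mean of 13.8 FPKM in CS 40D, a fall (difference -0.81, limma adjusted p = 4.31e-05). It was also lower in EC than in NEC, with differences of -1.41 in CS and -3.06 in SG (limma adjusted p = 3.25e-08 and 3.89e-13).

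**Figure D3:**
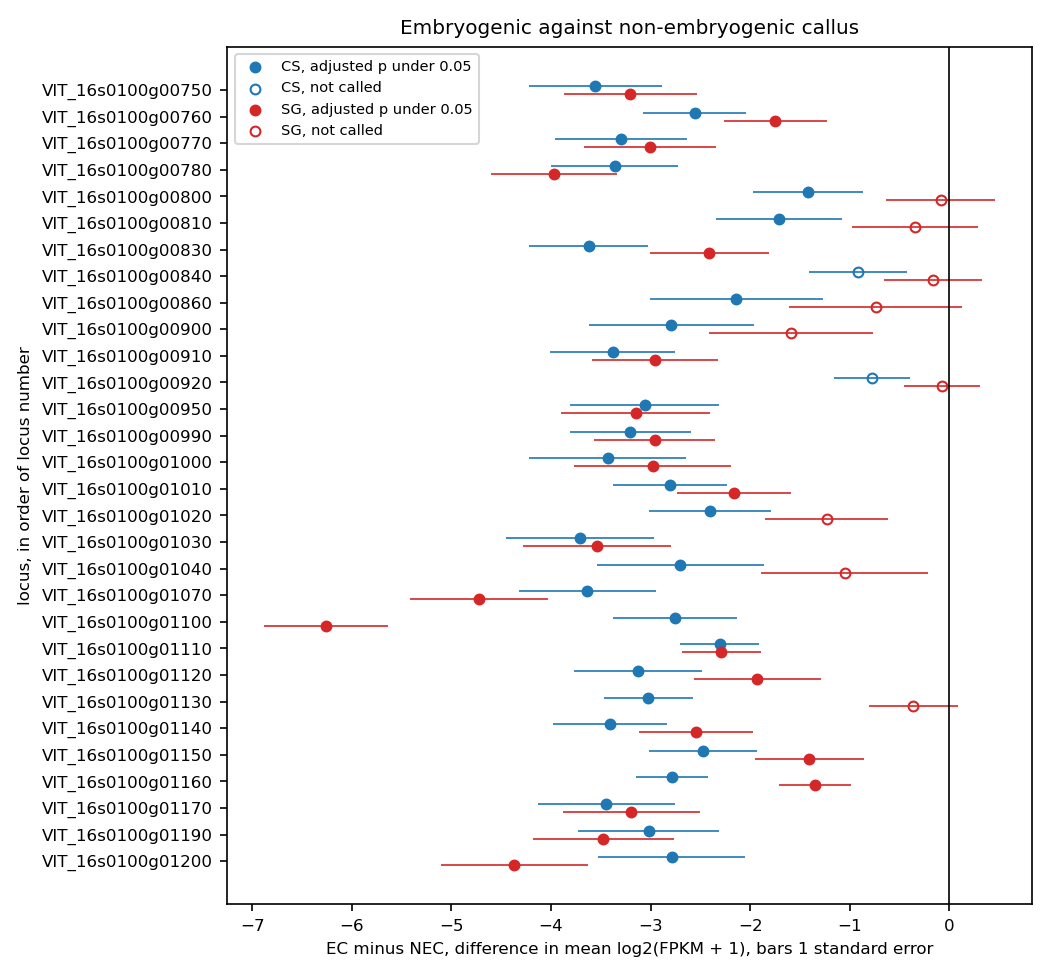
Difference of mean log2(FPKM + 1), EC minus NEC, for the 30 tested loci in CS and SG, with bars of 1 standard error; filled points had a limma adjusted p under 0.05. All CS points lie below 0, and VIT_16s0100g01100 at -6.26 in SG and -2.75 in CS has the widest gap between the cultivars.

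The third CS NEC library differed from the first 2 by locus. Its ratio to their mean ran from 2.74 at VIT_16s0100g01200 to 61.0 at VIT_16s0100g01040 over the 30 tested loci, with a median of 10.7. VIT_16s0100g01100 had 93.1 and 78.1 FPKM in the first 2 libraries and 349 in the third. VIT_16s0100g01040, named for its ratio, had 1.39 and 0.858 FPKM in the first 2 and 68.7 in the third. The 11 loci with 10 FPKM or more in the first 2 libraries had a median ratio of 8.22, from 2.74 to 12.9. The 5 loci under 1 FPKM there had a median ratio of 29.8, from 17.3 to 49.6. The ratio thus fell with the level in the first 2 libraries, although that level is also the denominator of the ratio. Of the tested loci, 4 reached 1 FPKM in exactly 3 libraries, this one among them.

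Few loci outside the cluster shared this rise. Of all 21568 tested loci, 110 (0.510%) had 10 FPKM or more in the third CS NEC library and at least 3 times the value of each of the other CS NEC libraries. Of these 110, 26 were cluster loci, 3 were among the 10 listed stilbene synthase loci of chromosome 10 and 5 among the 25 listed loci of the phenylalanine ammonia-lyase range of chromosome 16. VIT_07s0005g03340, 1 of the 2 listed regulator loci followed below, was also among the 110. None of the 82 other loci with the prefix VIT_16s0100g and none of the 3 chalcone synthase loci was among them. The median ratio over all tested loci was 0.984, and the relative depth of the 3 libraries was 1.34, 1.17 and 1.21. What set this library apart was not tested.

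**Figure D4:**
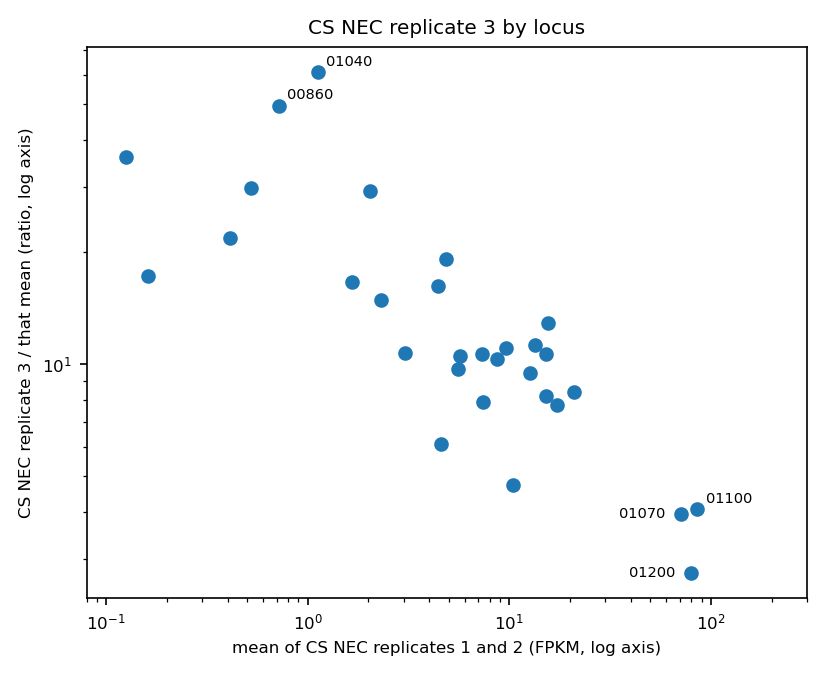
Ratio of the third CS NEC library to the mean of the first 2 against that mean, for the 30 tested loci (log axes). The highest loci, VIT_16s0100g01100, VIT_16s0100g01070 and VIT_16s0100g01200, have the lowest ratios, 2.74 to 4.07, and VIT_16s0100g01040 the highest, 61.0.

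Comparing SG with CS in the same tissue asks where the cultivars differed. In anthers 3 of 30 loci were higher in SG and none lower, beside 20.0% of all tested loci higher and 23.5% lower. At an unadjusted limma p under 0.05, 10 were higher and none lower. VIT_16s0100g01000 had 0.474, 0.250 and 0.236 FPKM in CS anthers and 0.451, 18.3 and 8.61 in SG anthers, a difference of 2.30 (SE 0.79, limma adjusted p = 0.024). VIT_16s0100g01190 differed by 1.91 (SE 0.71, limma adjusted p = 0.0358) and VIT_16s0100g00920 by 1.01 (SE 0.38, limma adjusted p = 0.039). VIT_16s0100g00920 passed the filter only through SG anthers and the third CS NEC library, so its call is not independent of the filter. The groups of all 3 loci called overlapped through the first SG anther library. Without that library 18 loci were higher in SG. Without the second or the third SG library, or the second or the third CS library, none was called, and without the first CS library 1 was. Shares of all tested loci were not computed for these fits.

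In 40D none of 30 loci was higher in SG and 2 were lower, beside 30.8% of all tested loci higher and 26.1% lower. None was higher and 4 were lower at an unadjusted limma p under 0.05. VIT_16s0100g01130 had 6.79, 7.42 and 6.75 FPKM in CS 40D and 0.389, 0.119 and 0.141 in SG 40D, a difference of -2.72 (SE 0.45, limma adjusted p = 4.02e-05). VIT_16s0100g01160 had 8.58, 7.71 and 8.06 FPKM in CS and 1.68, 1.54 and 1.07 in SG, a difference of -1.92 (SE 0.36, limma adjusted p = 0.000172). VIT_16s0100g01200 was the other way round, at 54.9 to 55.3 FPKM in CS and 149 to 157 in SG, with a difference of 1.45 (SE 0.74) that was not called (limma adjusted p = 0.102). VIT_16s0100g01100 was at 192.9 to 195.7 FPKM in CS and 182.8 to 186.1 in SG. Of the 30 loci 27 had groups that did not overlap, beside 74.5% of all tested loci in either direction. When the 2 groups were fitted alone 6 loci were called higher and 21 lower in SG, beside 38.0% and 32.8% of all tested loci.

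In NEC 1 of 30 loci was higher in SG and 5 were lower, beside 31.7% of all tested loci higher and 21.7% lower. VIT_16s0100g01100 was the one higher, at 625.5, 395.4 and 595.2 FPKM in SG and 93.1, 78.1 and 349 in CS, a difference of 1.94 (SE 0.62, limma adjusted p = 0.013). VIT_16s0100g01130 had 0.376, 0.212 and 0.277 FPKM in SG NEC and 8.08, 6.72 and 58.7 in CS NEC, a difference of -3.65 (SE 0.45, limma adjusted p = 1.47e-06). VIT_16s0100g01160 had 1.65, 1.70 and 2.27 FPKM in SG and 10.1, 10.7 and 49.4 in CS, a difference of -2.71 (SE 0.36, limma adjusted p = 4.1e-06). VIT_16s0100g00830 differed by -1.91 (SE 0.60, limma adjusted p = 0.0112). Without the third CS NEC library VIT_16s0100g01100, VIT_16s0100g01130 and VIT_16s0100g01160 were called, with differences of 2.62, -2.70 and -2.0, and VIT_16s0100g00830 was not (difference -0.92, limma adjusted p = 0.0905). Without the first or the second CS NEC library 14 loci were lower and none higher. Shares of all tested loci without a CS NEC library were not computed.

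In EC none of 30 loci was higher in SG and 2 were lower, beside 19.3% of all tested loci higher and 32.1% lower. None was higher and 3 were lower at an unadjusted limma p under 0.05. VIT_16s0100g01160 had 1.34, 1.95 and 1.90 FPKM in CS EC and 0.317, 0 and 0.0718 in SG EC, a difference of -1.28 (SE 0.36, limma adjusted p = 0.00654). VIT_16s0100g01100 had 13.1, 30.3 and 18.3 FPKM in CS EC and 20.4, 0.774 and 7.67 in SG EC, with overlapping groups and a difference of -1.56 (SE 0.62, limma adjusted p = 0.0425). The number of loci called was 1 without the second or the third library of either EC group and 4 without the first SG EC library.

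Whether EC differed from NEC by a different amount in the 2 cultivars was tested as an interaction, the difference in SG minus the difference in CS. For 2 of 30 loci it was called above 0 and for 1 below, beside 15.2% and 31.8% of all tested loci. With 0.1 in place of 1 added to the FPKM, 0 loci were called above 0 and 1 below. VIT_16s0100g01100 differed between EC and NEC by -6.26 in SG and by -2.75 in CS, an interaction of -3.51 (SE 0.88, limma adjusted p = 0.00309). VIT_16s0100g01130 differed by -3.02 in CS, while in SG it was at 0.376 FPKM or less in NEC and listed at 0 in all EC libraries, so no large fall could be seen there (interaction 2.66, SE 0.63, limma adjusted p = 0.00211). VIT_16s0100g01160 differed by -2.78 in CS and by -1.35 in SG, from a low SG level, with an interaction of 1.43 (SE 0.51, limma adjusted p = 0.0281). Without the third CS NEC library the 3 interactions were -4.18, 1.72 and 0.72, each still called, and that of VIT_16s0100g01110 (-0.78, limma adjusted p = 0.00882) was called as well.

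**Figure D5:**
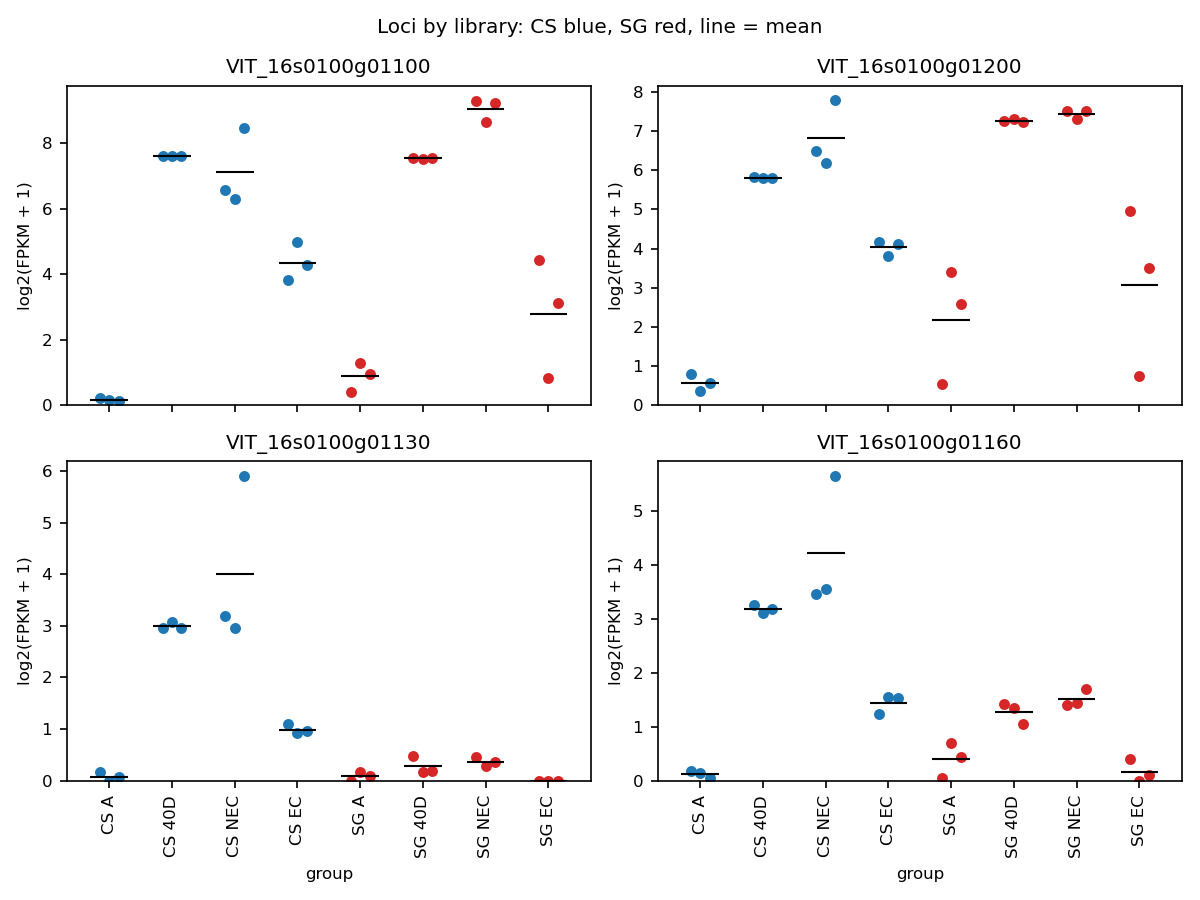
log2(FPKM + 1) of 4 loci in each library (CS blue, SG red), with lines for group means. VIT_16s0100g01100 is highest in SG NEC, VIT_16s0100g01200 is higher in SG 40D than in CS 40D, and VIT_16s0100g01130 and VIT_16s0100g01160 are higher in every CS 40D and NEC library than in any SG library.

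Other steps of the pathway were followed in lists of loci taken from published assignments, chosen with earlier results of these data known. Phenylalanine ammonia-lyase opens the phenylpropanoid pathway that feeds both stilbenes and flavonoids. Of the 25 listed loci of its chromosome 16 range, 10 were tested. From anthers to 40D the CS libraries gave 4 rises and no fall, the SG libraries 2 rises and 1 fall, beside shares among all loci of 35.6% higher and 43.0% lower for CS, with 36.8% higher and 39.9% lower for SG. In EC against NEC 8 were lower in CS, 6 were lower in SG and none was higher, beside 27.9% of all tested loci lower in CS and 32.2% in SG. Their summed level was 10.9, 14.7 and 144 FPKM in CS NEC, and 2.92 to 4.51 FPKM in CS EC. It was 20.7 to 23.2 FPKM in SG NEC and 1.58 to 3.87 FPKM in SG EC. Without the third CS NEC library 4 of the 10 were called lower in CS EC, and the share of all tested loci was not computed.

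The 3 listed loci of chalcone synthase, which uses the same substrates, were called in part in the same and in part in other directions than the cluster. Their summed level averaged 194 FPKM in CS anthers, 1766 FPKM in 40D, 79.3 FPKM in NEC and 177 FPKM in EC. The SG groups in the same order averaged 211, 635, 266 and 74.5 FPKM. All 3 rose from anthers to 40D in CS and 2 in SG, beside 35.6% and 36.8% of all tested loci. All 3 fell from 40D to NEC in CS, beside 31.2%. All 3 were lower in EC than in 40D in both cultivars, the direction in which cluster loci were called too. The shares of all tested loci were 26.5% in CS and 29.7% in SG. In CS 2 were higher in EC than in NEC (1 under median-of-ratios scaling) and none lower, beside 51.4% of all tested loci higher. In SG 1 was lower and none higher, beside 32.2% of all tested loci lower. With 3 loci listed, neither count stands apart from those shares. The interaction was called below 0 for all 3, beside 31.8% of all tested loci. Between EC and NEC of CS the 28 stilbene synthase loci called were lower in EC, beside 27.9% of all tested loci. The 2 chalcone synthase loci called were higher, as were 51.4% of all tested loci, so they do not set chalcone synthase apart.

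The regulator list held 2 loci, assigned in the literature as transcription factors of the stilbene pathway. Both rose from anthers to 40D in both cultivars, beside 35.6% of all tested loci in CS and 36.8% in SG. Both were lower in EC than in NEC in both cultivars, beside 27.9% and 32.2%. VIT_07s0005g03340 had 78.3, 63.5 and 273 FPKM in CS NEC and a mean of 25.7 FPKM in CS EC, a difference of -2.07 (SE 0.42, limma adjusted p = 0.00017). In SG it had means of 28.5 FPKM in NEC and 4.78 in EC, a difference of -2.44 (SE 0.42, limma adjusted p = 2.92e-05). VIT_05s0049g01020 averaged 34.2 FPKM in NEC and 5.77 FPKM in EC of CS, against 27.8 and 3.08 FPKM in SG. In the third CS NEC library the first of these was 3.85 times and the second 1.26 times the mean of the first 2 libraries, beside 6.87 times for the cluster sum. Without that library both were still lower in CS EC than in NEC. Against 40D, VIT_07s0005g03340 was higher in CS NEC by 2.28 (SE 0.42, limma adjusted p = 0.000103), and by 1.63 (SE 0.34, limma adjusted p = 0.00042) without that library. In CS EC it was at 25.7 FPKM beside 22.1 FPKM in 40D and was not called, a difference of 0.21 (SE 0.42, limma adjusted p = 0.67). VIT_05s0049g01020 was lower in CS EC than in 40D, with a difference of -2.18 (SE 0.42, limma adjusted p = 0.000106). In SG both were lower in EC than in 40D and neither was called between NEC and 40D.

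The chromosome 10 stilbene synthase loci did not follow the chromosome 16 cluster from anthers to 40D. Of 10 listed, 6 were tested, none was called in CS and 4 fell in SG, beside 39.9% of all tested loci that fell there. Their summed level in SG anthers was 0.652, 99.1 and 45.9 FPKM and in SG 40D 2.61 to 5.78 FPKM, with the first anther library again the lowest. In EC against NEC 1 was lower in CS, none without the third CS NEC library, and none was called in SG. Of the 82 other loci with the prefix VIT_16s0100g, 58 were tested, and those called in EC against NEC were divided. In CS 28 were higher and 21 lower, beside 51.4% and 27.9% of all tested loci, and in SG the counts were 21 higher with 24 lower, beside 46.1% and 32.2%.

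Outside the cluster, VIT_11s0065g00350 and VIT_08s0007g08750 ranked the 24 libraries most like its sum. Both lie on other chromosomes by their identifiers. The Spearman correlation was 0.954 for VIT_11s0065g00350 and 0.952 for VIT_08s0007g08750, as a description over libraries that fall into 8 groups. Among the loci next in order was VIT_16s0050g01700, on chromosome 16 by its identifier, at 0.934. Among the cluster loci themselves the correlation with the sum ran from 0.29 to 0.98 with a median of 0.83. VIT_11s0065g00350 averaged 2.44 FPKM in CS anthers, 28.6 FPKM in 40D, 87.5 FPKM in NEC (SD 101.5) and 11.8 FPKM in EC. Its SG means in the same order were 22.3, 95.9, 122 and 11.7 FPKM. VIT_08s0007g08750 had means of 0.931, 14.6, 54.2 (SD 31.9) and 8.41 FPKM in CS and 2.09, 51.6, 70.7 and 4.72 FPKM in SG. Neither carries a name in the table.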

How the data were processed

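The authors deposited FPKM values in 1 table and, per the submitters' processing notes, used Cufflinks 2.1.1, TopHat2 2.0.9 and CASAVA 1.8.2 (listed without roles). The genome build, the annotation and any further scaling were not given in the sources used here, and how reads of near-identical copies were divided could change single-copy values. Everything below was computed from that table. All 24 libraries entered a single limma fit (version 3.58.1, R 4.3.3) of log2(FPKM + 1) with a mean for each group, 16 residual degrees of freedom and a spread trended on expression, over loci that reached 1 FPKM in 3 or more libraries. P-values were adjusted over all 21568 tested loci within a comparison, two-sided, at 0.05. Sums and shares are descriptions. The steps were tested on simulated data. Loci named are the 8 highest, the 3 largest called changes per comparison within a cultivar, calls against the majority, interaction calls, up to the 4 largest cultivar differences, both ends of the range and the loci most like the sum; others are marked. Members, lists and rules were chosen with earlier results of these data known. An exact 0 can be a failed estimate: 10 cluster loci were listed at 0 in a library whose group mate had 1 FPKM or more.

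Other settings tried were no filter, a mean of 5 FPKM, a pseudocount of 0.1, the replicate block, the compared groups alone, 2 other scalings, a log2 difference of at least 1, averaged 40D groups, anther and EC groups without replicate 3, and leaving out each library. The libraries in doubt, replicate 3 of the anther, EC and CS NEC groups left out with averaged 40D groups, were an alternative added after the data were examined. No sequence is printed, since no genome or sequence table was used here.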

Additional observations from a re-analysis of the deposited data

Results flagged for a closer look

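At 3 loci the difference between EC and NEC itself differed between the cultivars by the limma interaction term, in SG minus in CS. VIT_16s0100g01100 had an interaction of -3.51 (SE 0.88, limma adjusted p = 0.00309), and was called in 12 of 12 fits that left out 1 library. VIT_16s0100g01130 had an interaction of 2.66 (SE 0.63, limma adjusted p = 0.00211), also called in 12 of 12 such fits, and VIT_16s0100g01160 one of 1.43 (SE 0.51, limma adjusted p = 0.0281), called in 8 of 12 with a highest adjusted p of 0.0621. With the libraries in doubt left out together, the interactions were -4.39, 1.70 and 0.80, with limma adjusted p of 0.0361, 0.000427 and 0.0991. Both loci with an interaction above 0 were low in every SG library, at 0.389 FPKM or less for VIT_16s0100g01130 and 2.27 FPKM or less for VIT_16s0100g01160. With the pseudocount of 0.1, which compresses low values less, 0 loci were called above 0 and 1 below. The 2 interactions above 0 thus depended on the pseudocount.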

How the results depend on the processing

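Under other settings 175 counts were within 1.5 times the main count and 46 were not, and 5 summed levels moved by more than 1 SD. Calls of EC lower than NEC or 40D, and of 40D higher than CS anthers, kept that direction in every setting run. For CS EC against NEC, 16 loci were called with the filter at a mean of 5 FPKM, which tests fewer loci, and 17 without the libraries in doubt. For CS EC against 40D, 14 were called with averaged 40D groups and 15 without the libraries in doubt. For SG 40D against anthers, 10 were called with averaged 40D groups. For CS NEC against 40D (1 called), the count was 0 with the pseudocount of 0.1, the filter at 5 FPKM, the compared groups alone or averaged 40D groups, 2 with equal sums, 3 (all lower) without the libraries in doubt, and 1 to 9 with 1 library left out: 6 or 9 higher without replicate 1 or 2 of CS NEC, 5 lower without replicate 3. For SG NEC against 40D (0 called), it was 1 with the filter at 5 FPKM or equal sums and 17 with the groups alone. For SG against CS anthers (3 called), it was 9 with the pseudocount of 0.1, 0 with the groups alone, without replicate 3 of the anther and EC groups or without the libraries in doubt, and 0 to 18 with 1 library left out. For 40D (2 called), it was 0 with the filter at 5 FPKM, 27 with the groups alone and 1 with averaged 40D groups. For NEC (6 called), it was 3 with the groups alone or without the libraries in doubt, and 3 to 14 with 1 library left out. For EC (2 called), it was 1 with no filter, the filter at 5 FPKM or median-of-ratios scaling, 0 without replicate 3 of the anther and EC groups, and 1 to 4 with 1 library left out. The interaction (3 called) gave 1, below 0, with the pseudocount of 0.1 or the filter at 5 FPKM. The filter at a mean of 5 FPKM left out VIT_16s0100g01130 and VIT_16s0100g01160, with means of 4.14 and 4.64 FPKM. Neither could be called under that filter, so the lower counts there include loci that were not tested. Beyond this, the cause of these changes was not tested. The summed level of CS 40D was 628.6 FPKM with median-of-ratios scaling and 516 with equal sums, that of SG 40D 692 and 594, and that of CS EC 59.1 with median-of-ratios scaling. The median of all loci in CS EC against NEC was 0.31 as deposited, 0 under median-of-ratios scaling and 0.41 with equal sums.

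Replicate numbers did not pair the libraries: correlations of same-numbered deviations ran from -0.26 to 0.17, and no comparison had all of them above 0.1. With the replicate block 5 loci were called in SG against CS NEC in place of 6, and the other counts were those without it.

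Near-identical copies, the unknown number of reads, groups of 3 and the unequal spread of the groups limit what single loci show. Low values weigh little on the log2(FPKM + 1) scale, and a locus that is not called is not shown to be equal.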
